A study of Oryctolagus cuniculus with 4 samples.

Results

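The secretory pathway and folding machinery of the endoplasmic reticulum (ER) was examined in intact semitendinosus tendons of rabbits. Members were all genes of the deposited table whose symbol starts with COPA, COPB, COPE, COPG, COPZ, PDIA, FKBP, SSR, KDELR, TMED, TRAPPC, SAR1 or SEC followed by a digit. This rule found 68 of 20294 genes, and 13225 genes of the table carried a symbol. The tissue came from 4 female New Zealand White rabbits aged 193 days, with 1 semitendinosus, a hamstring tendon used as a graft, from each animal, and no treatment is named. Muscle on the surface was removed with a scalpel, and the frozen tendon was ground whole, so that each library pools RNA of every cell type in the tissue. All 4 tendons formed 1 group. No contrast between conditions exists, and the comparisons below are between genes within a tendon and between the 4 animals. The animal, the tissue left on the tendon and the library preparation cannot be told apart. The series title calls the tendons allografts and the design text autografts, while the sample descriptions call them intact.

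Secreted proteins such as procollagen enter the ER through the SEC61 channel, are folded there with disulfide isomerases and prolyl isomerases, and leave in vesicles coated by COPII. COPI-coated vesicles carry escaped ER proteins and receptors back from the Golgi, and the TRAPP complexes tether vesicles to their target membranes. Tendon fibroblasts secrete large amounts of procollagen, and mutations in several of these genes, among them FKBP10, FKBP14, SEC24D and KDELR2, cause inherited disorders of bone or connective tissue in humans.

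The members fell into 13 groups by role. By textbook function 59 of them belong to the secretory pathway. The other 9 act elsewhere: FKBP1B, FKBP4, FKBP5, FKBP6 and FKBPL act in the cytosol or nucleus, SEC14L1, SEC14L3 and SEC14L5 are SEC14-like lipid-binding protein genes, and SSRP1 encodes a histone chaperone subunit. The reference gene table (RefSeq, assembly mOryCun1.1) lists 90 protein-coding symbols that fit the rule, of which 67 had an entry under that symbol in the count table. PDIA3, COPE, SEC16A, SEC61B, SEC61G, FKBP1A, FKBP2, FKBP11 and TRAPPC2 were among those without one, so no level is given for them. This is no sign of absent expression, because many genes of the table carry no symbol.

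Levels are given in TPM, a relative transcript abundance that corrects counts for transcript length and scales each tendon to the same total. Differences between tendons are given in TMM-normalised CPM, depth-scaled counts adjusted by the trimmed mean of M-values. The members together took 0.622% ± 0.0334 of TPM (SD, n = 4), with 0.663%, 0.629%, 0.583% and 0.612% in tendons 1 to 4. In bulk tissue, fewer cells of a type and less RNA per cell cannot be told apart. Without length correction they took 0.585% of counts. A mean of at least 1 TPM was reached by 67 of 68 members, against 63.0% of all genes and 75.4% of genes with a symbol. The exception was SEC14L3, with 0 counts in all 4 tendons, which allows up to 0.159 TPM in tendon 1, the shallowest library. Among the 1000 genes with the highest mean TPM stood 15 members (22.1%), against 4.93% of all genes and 5.13% of genes with a symbol. The median member had 67.0 TPM, and the median gene of the table with at least 1 TPM had 19.5 TPM.

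**Figure D1:**
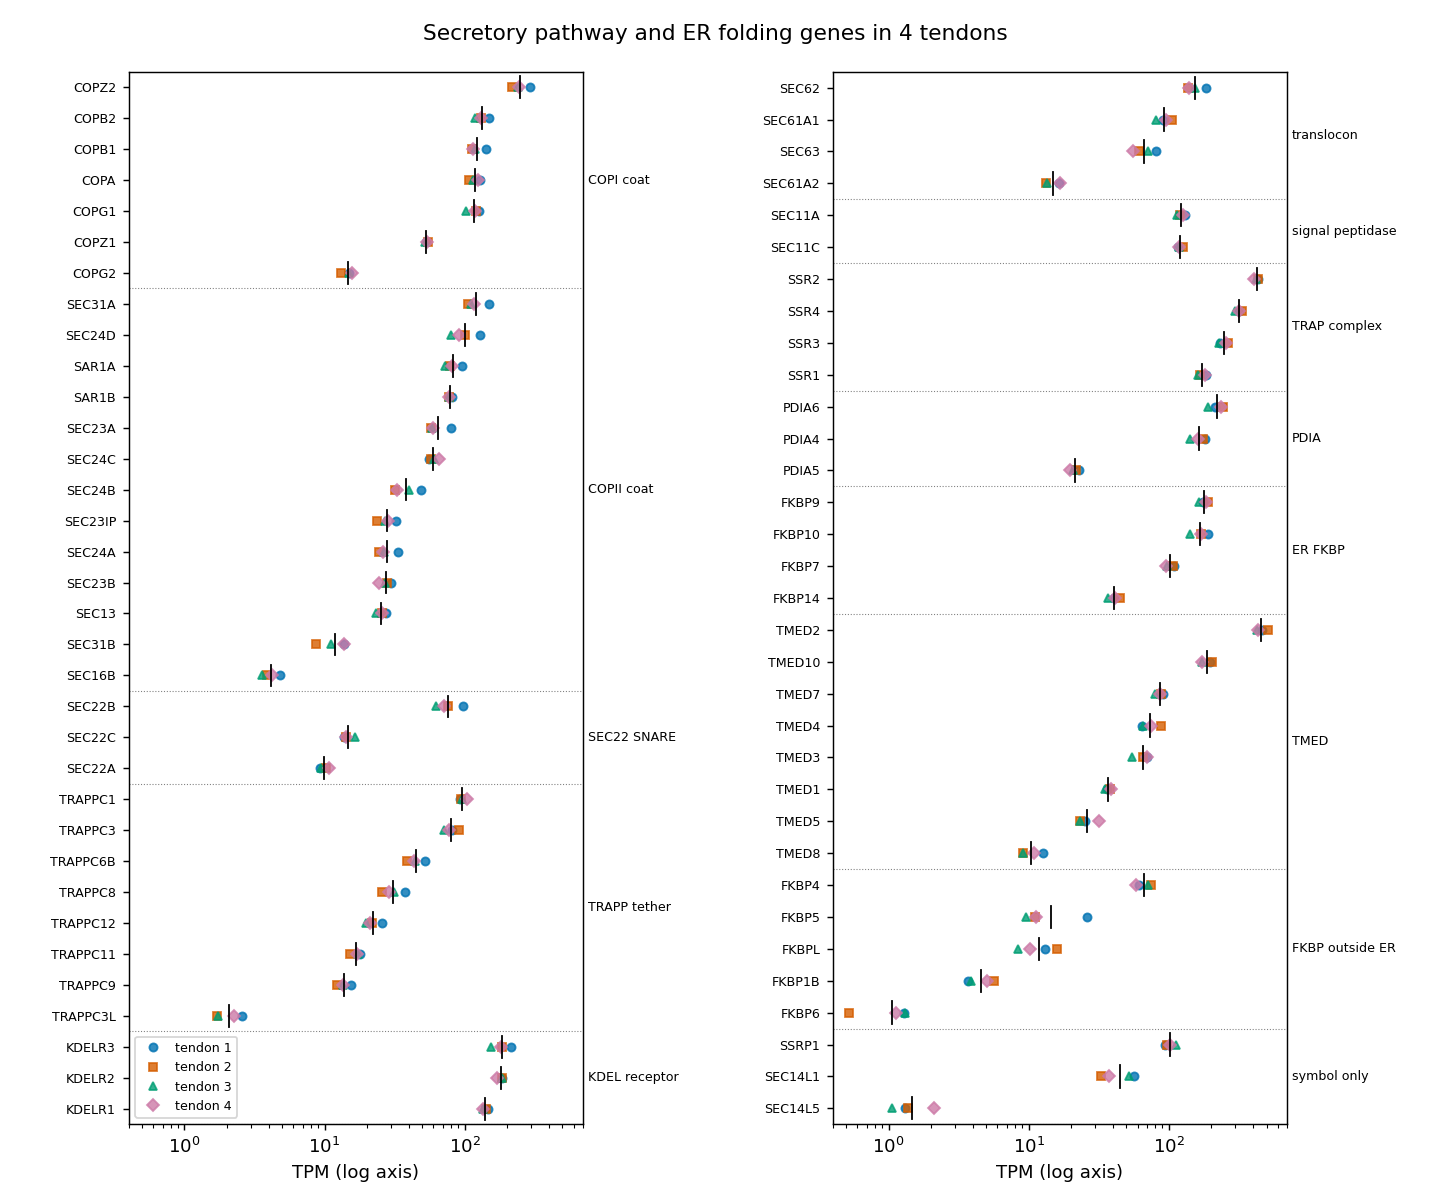
TPM on a log axis of the 67 members with counts, by role group, 1 point per tendon, and a vertical bar at each gene's mean. Points of most genes lie close together, whereas for FKBP5 tendon 1 (26.0 TPM) lies apart from the next value (11.3 TPM).

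At the point of entry into the ER, the TRAP complex was the most abundant of the 13 groups in TPM, though not in counts, where it took 0.0489% and COPI 0.118%. TRAP sits beside the SEC61 channel and is encoded by SSR1 to SSR4, its alpha, beta, gamma and delta subunits. The group took 0.116% ± 0.00369 of TPM (SD, n = 4). SSR2 (ENSOCUG00000008455.2, chromosome 13, 36833099 to 36839479, build OryCun2.0) reached 434, 435, 423 and 405 TPM across tendons 1 to 4. SSR4 had 317, 332, 299.7 and 316 TPM, SSR3 had 234, 266, 228 and 258 TPM, and SSR1 had 185, 168, 161 and 182 TPM. The order SSR2, SSR4, SSR3, SSR1 was the same in all 4 tendons, with ranges of neighbouring subunits that did not overlap. The highest subunit was 2.35, 2.60, 2.62 and 2.23 times the lowest in tendons 1 to 4. In CPM, without length correction, SSR1 was above SSR4 in all 4 tendons. The SSR4 model has 531 bases and the main SSR1 model 1119.

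The translocon itself took 0.0329% ± 0.00295 of TPM. SEC61A1, the pore-forming subunit, had 90.8, 105, 81.2 and 95.8 TPM in tendons 1 to 4, and its paralogue SEC61A2 had 16.4, 13.3, 13.6 and 16.7 TPM. SEC61A1 exceeded SEC61A2 in each tendon, with ratios of 5.55, 7.91, 5.98 and 5.73 in TPM and 16.2, 23.1, 17.4 and 16.7 in CPM. SEC62 and SEC63 assist the import of finished proteins through the channel. SEC62 had 185, 137, 155 and 139 TPM, and SEC63 had 80.6, 61.0, 71.5 and 55.4 TPM. The ratio of SEC62 to SEC63 was 2.29, 2.24, 2.16 and 2.51 in TPM and 0.501, 0.491, 0.473 and 0.549 in CPM, so its direction rests on the annotated lengths, 1236 bases for the main SEC62 transcript and 5655 for SEC63. The catalytic subunits of signal peptidase, which cuts off the signal sequence, were level in TPM. SEC11A had 130.3, 121, 114 and 126 TPM, and SEC11C had 118, 126, 119 and 119 TPM, with a log2 ratio of 0.02 ± 0.11 (SD, n = 4) and 2 tendons on each side of equality. In CPM SEC11A was higher in all 4 tendons, with ratios of 1.31, 1.13, 1.13 and 1.25, on models of 704 and 594 bases.

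Among protein-folding enzymes, PDIA4 and PDIA6, which form and rearrange disulfide bonds, stood well above PDIA5. PDIA6 (ENSOCUG00000012991.3, scaffold GL018795, 492052 to 513790) reached 215, 245, 192 and 238 TPM across tendons 1 to 4. PDIA4 (ENSOCUG00000001661.3, chromosome 7, 3003229 to 3024229) had 181, 177, 143 and 161 TPM, and PDIA5 had 22.8, 22.0, 20.9 and 19.8 TPM. The values of PDIA4 and PDIA5 did not overlap. In TMM CPM, tendon 2 was highest for all 3 genes. PDIA6 exceeded PDIA4 1.19, 1.38, 1.35 and 1.48-fold in TPM, and in CPM it was lower, at 0.436, 0.509, 0.496 and 0.543 times PDIA4.

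The 4 prolyl isomerases of the ER took 0.0490% ± 0.00354 of TPM. FKBP10, a chaperone and isomerase of procollagen, (ENSOCUG00000000611.3, chromosome 19, 42713269 to 42719450) reached 189.8, 169.6, 142 and 169 TPM across tendons 1 to 4. FKBP9, its close relative, had 177, 190.0, 164 and 184 TPM. The log2 ratio of FKBP10 to FKBP9 was -0.10 ± 0.14 in TPM (exact sign-flip permutation test, two-sided, p = 0.25, adjusted p = 0.294). With 4 tendons this test cannot reach 0.05 for any pair, so it cannot decide whether these genes differ. The ratio of FKBP10 to FKBP9 was 1.07, 0.893, 0.867 and 0.919 in TPM. In CPM it was 1.33, 1.11, 1.07 and 1.14, so FKBP10 was higher in all 4 tendons. FKBP7 had 109, 108, 97.2 and 96.4 TPM, and FKBP14, which acts on collagens, had 40.7, 45.2, 36.8 and 41.1 TPM. FKBP14 was below the other 3 in every tendon, 259 counts being its lowest count. FKBP10 exceeded it 4.66, 3.76, 3.86 and 4.12-fold in TPM and 17.9, 14.4, 14.8 and 15.8-fold in CPM.

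The FKBP genes outside the ER had means from 1.06 to 66.8 TPM. FKBP4, an Hsp90 cochaperone, had 61.9, 75.1, 71.8 and 58.6 TPM. FKBP5, an Hsp90 cochaperone whose transcription glucocorticoids induce, (ENSOCUG00000005513.3, chromosome 12, 25622831 to 25754391) reached 26.0, 11.2, 9.65 and 11.3 TPM, so that tendon 1 stood above the other 3. FKBPL had 13.2, 16.0, 8.46 and 10.2 TPM, FKBP1B, a partner of ryanodine receptors, had 3.72, 5.69, 3.85 and 5.03 TPM, and FKBP6, known from the male germ line, had 1.29, 0.520, 1.31 and 1.14 TPM. Estimated counts of FKBP6 were only 29, 20, 45 and 43.1 in tendons 1 to 4. SSRP1 had 94.8, 96.8, 113 and 103 TPM, SEC14L1 57.0, 32.9, 52.0 and 37.5 TPM and SEC14L5 1.32, 1.39, 1.06 and 2.12 TPM.

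COPII, the coat of vesicles that leave the ER, took 0.0669% ± 0.00767 of TPM over 13 genes, its associated factor SEC23IP included. Its parts are the GTPase SAR1, the inner coat of SEC23 and the cargo-binding SEC24, and the outer cage of SEC13 and SEC31. The SEC24 family was led by SEC24D (ENSOCUG00000013272.3, chromosome 15, 94031025 to 94168279), with 129.9, 101, 80.0 and 91.1 TPM in tendons 1 to 4. It made up 44.1% ± 4.49 of SEC24 TPM (SD, n = 4). SEC24C had 55.8, 57.6, 60.2 and 66.1 TPM, SEC24B 48.5, 31.8, 40.1 and 32.7 TPM and SEC24A 33.7, 24.5, 26.5 and 26.2 TPM. SEC24D was the highest of the 4 in every tendon, and 3.85, 4.11, 3.02 and 3.47 times SEC24A in TPM. In CPM it was 2.01, 2.15, 1.58 and 1.82 times SEC24A. SEC24C was above SEC24B in every tendon, but in tendon 1 by only 1.15 times, against 1.50 to 2.03 times in tendons 2 to 4.

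SEC23A (ENSOCUG00000009925.3, chromosome 17, 58640641 to 58705851) reached 80.2, 57.5, 58.8 and 59.8 TPM, with tendon 1 apart from the rest. SEC23B had 29.7, 28.0, 27.2 and 24.7 TPM and was lower in every tendon, so SEC23A made up 69.9% ± 2.56 of SEC23 TPM. SEC31A had 149, 106, 111 and 116 TPM, and SEC31B 13.8, 8.68, 11.2 and 13.7 TPM, with ratios of SEC31A to SEC31B of 10.8, 12.2, 9.95 and 8.48. The 2 SAR1 genes were close to each other. SAR1A had 96.3, 79.1, 72.02 and 81.7 TPM, and SAR1B had 81.2, 78.1, 77.5 and 77.0 TPM, with a log2 ratio of 0.06 ± 0.15 that turned negative with shorter effective lengths. In CPM the ratio was 1.81, 1.55, 1.42 and 1.62. SEC13, which also belongs to the nuclear pore, had 27.3, 25.8, 23.4 and 25.5 TPM on a long model of 5750 bases. SEC23IP had 28.0 ± 3.45 TPM (SD, n = 4). SEC16B, an organiser of ER exit sites, was the lowest of the group at 4.81, 3.91, 3.60 and 4.24 TPM. SEC22B, a SNARE of traffic between ER and Golgi, had 97.1, 75.7, 62.4 and 71.1 TPM, above SEC22C at 13.8, 14.2, 16.5 and 14.3 TPM and SEC22A at 9.31, 10.3, 9.36 and 10.7 TPM. In TMM CPM SEC22B was above SEC22C in tendons 1 and 2 and below it in tendons 3 and 4, at 51.6, 46.2, 34.3 and 37.8 against 38.5, 45.6, 47.6 and 39.9, on models of 1017 and 5338 bases.

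COPI, the coat of retrograde vesicles, took 0.0810% ± 0.00699 of TPM. Its large subunits were nearly level within each tendon. COPA (alpha) had 128, 108, 115 and 126 TPM, COPB1 (beta) 143, 113, 119 and 115 TPM, COPB2 (beta prime) 150.0, 132, 119 and 131 TPM and COPG1 (gamma) 127, 121, 103 and 118 TPM. The highest of these 4 was 1.18, 1.22, 1.16 and 1.14 times the lowest in tendons 1 to 4, and 1.55, 1.32, 1.67 and 1.59 times without length correction. COPB1 was below COPB2 in 3 of 4 tendons, with a log2 ratio of -0.12 ± 0.10 (SD, n = 4), and the sign of their log2 ratio turned in CPM. COPG2, the second gamma subunit, had 14.9, 13.0, 15.1 and 15.8 TPM, and COPG1 was 8.56, 9.31, 6.81 and 7.45 times as high. Of the zeta subunits, COPZ2 had 294, 218, 241 and 245 TPM, and COPZ1 52.8, 54.9, 52.6 and 53.5 TPM. The COPZ2 model has 615 bases and the COPZ1 model 3393, and the order of the genes turned with length correction: the ratio of COPZ1 to COPZ2 was 0.179, 0.252, 0.218 and 0.218 in TPM and 0.990, 1.39, 1.20 and 1.20 in CPM.

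Among receptors that return or select cargo, TMED2, TMED10 and the KDEL receptors had high TPM on short models. The KDEL receptors, which retrieve ER-resident proteins from the Golgi, took 0.0507% ± 0.00313 of TPM and 0.0193% of counts. KDELR3 had 215, 186, 155 and 183 TPM, KDELR2 186, 187, 186 and 169 TPM and KDELR1 146, 143, 136 and 136 TPM. KDELR2 exceeded KDELR1 in all 4 tendons and KDELR3 in 2 of 4. The TMED family, cargo receptors of the early secretory pathway, took 0.0945% ± 0.00679 of TPM and 0.0382% of counts, with a median member of 69.3 TPM. TMED2 (ENSOCUG00000003453.2, scaffold GL018923, 273250 to 284154) reached 463, 512, 425 and 437 TPM, the highest mean of all 68 members, and its partner TMED10 had 199, 204, 173 and 173 TPM. TMED10 was 0.428, 0.398, 0.407 and 0.395 times TMED2, and the direction held in CPM. TMED7 had 91.2, 88.5, 79.6 and 86.9 TPM, and the remaining TMED3, TMED4, TMED1, TMED5 and TMED8 had means between 10.4 and 73.4 TPM.

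TRAPP genes took 0.0307% ± 0.00124 of TPM. The core subunits TRAPPC1 and TRAPPC3 led with 92.1, 94.2, 95.1 and 104 TPM and 81.2, 91.7, 71.6 and 77.4 TPM. TRAPPC6B, also a core subunit, had 51.8, 38.8, 44.5 and 43.5 TPM. Subunits that distinguish the larger TRAPP complexes had lower means in TPM, namely 30.9 TPM for TRAPPC8, 22.0 for TRAPPC12, 16.9 for TRAPPC11 and 13.7 for TRAPPC9. This order turned without length correction: in TMM CPM the means were 77.1 for TRAPPC11, 72.2 for TRAPPC8, 37.6 for TRAPPC9 and 31.5 for TRAPPC12, against 23.0 for TRAPPC1 and 28.5 for TRAPPC3. TRAPPC3L, a paralogue of TRAPPC3, had 2.07 ± 0.414 TPM (SD, n = 4) from 28 to 41 counts.

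Paralogue and subunit ratios were computed for 20 of 25 pairs that had both entries. In 15 of 20 pairs all 4 tendons lay on the same side of equality. Each of these had the smallest p that 4 tendons allow (exact sign-flip permutation test, two-sided; Benjamini-Hochberg adjusted p = 0.167 over the 20 pairs), so that no pair could reach 0.05. The direction turned without length correction in 7 pairs. A coding sequence without untranslated ends has a length divisible by 3, and 39 of 68 members had only such lengths. A model with untranslated ends can have such a length too, so this count does not show how many lack them. The same share over all genes is not given here. The effect of such lengths on TPM differences between genes was not tested.

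Of the members, 8 had 2 annotated transcripts and 60 had 1. For TMED10, SEC62, SSR1 and SEC31A, the same transcript led in all 4 tendons, with 90.1% to 99.2% of the gene's TPM, and for TMED3 the second transcript had 0 counts throughout. COPG2 divided its TPM, with 71.8%, 82.0%, 81.7% and 74.1% in the shorter form of 2625 bases. FKBP1B had no constant leading transcript in TPM: the longer form held 47.7%, 50.1%, 45.1% and 54.0% in tendons 1 to 4. In counts the longer form led in every tendon, with 28, 77, 42 and 72 against 6, 15, 10 and 12. Its shares in TPM thus rest on few counts. The shorter TRAPPC6B form held 70.8% to 78.1%. These shares rest on how reads were divided between overlapping transcripts upstream.

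Members lay on 18 chromosomes, and 14 on unplaced scaffolds. Some were neighbours. SAR1B (chromosome 3, 17336197 to 17353175, minus strand) and SEC24A (17376324 to 17468506, plus strand), a pair of COPII genes, lay head to head 23.1 kb apart with 0 genes of the table between them. SEC22A and PDIA5 lay 43.7 kb apart on the minus strand of chromosome 14, with 0 genes between them. SEC23A and TRAPPC6B lay 46.3 kb apart on the minus strand of chromosome 17, with 1 gene between them.

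Few members had a large range between animals. A mean of at least 10 CPM was reached by 60 of 68 members (43.3% of all genes), and spread was described for these. The 8 below it were SEC16B, TMED8, TRAPPC3L, FKBPL, FKBP1B, FKBP6, SEC14L5 and SEC14L3. The highest tendon was at least 2 times the lowest for 1 of 60 members (1.67%), against 10% of all genes at this level. That member was FKBP5, and without tendon 1 the count was 0 of 60, against 5.32% of all genes. A range of at least 1.5-fold was seen for 5 of 60 (8.33%), against 29.2% of all genes. Besides FKBP5 these were TMED4, SEC24D, SEC14L1 and SEC22B. The centre of the distribution differed less: the median range was 1.28-fold for members and 1.33-fold for all genes. The median SD of log2(TMM CPM + 1) was 0.16 for members and 0.18 for all genes. It was 0.17 for the 8029 genes within the CPM range of the secretory members. The shares of all genes at 2-fold and 1.5-fold were not matched for level. Median biological coefficients of variation from edgeR were 0.184 for members and 0.185 for all genes. The fit draws these coefficients toward a trend shared by all genes, so their closeness does not show equal spread.

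**Figure D2:**
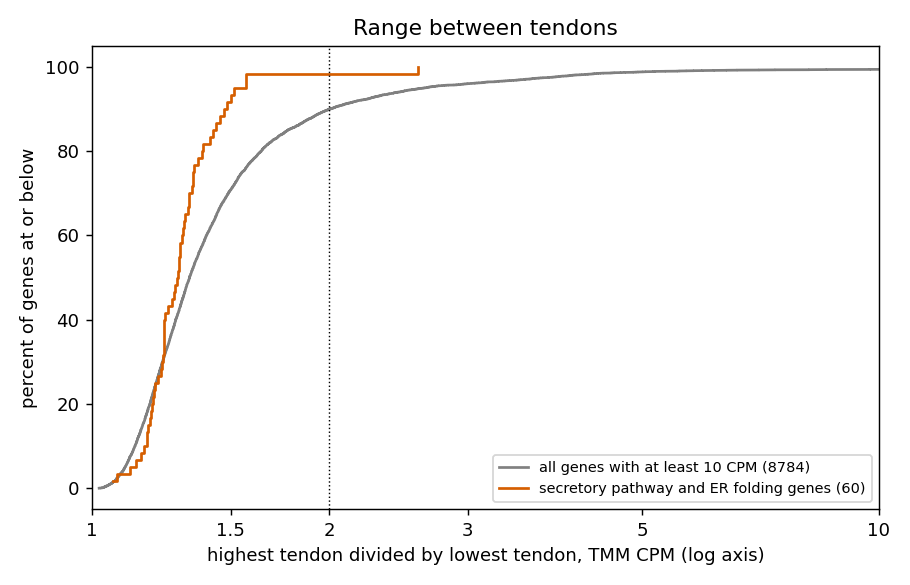
Percent of genes (vertical axis) whose highest tendon divided by the lowest, in TMM CPM on a log axis, is at or below the value shown, for 60 members and all 8784 genes with at least 10 CPM; 49 genes lie beyond the axis. Of the members 59 lie below 2-fold.

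FKBP5 had the largest range of the 60, 2.60-fold. Its TMM CPM were 54.0, 26.7, 20.8 and 23.6 in tendons 1 to 4, so tendon 1 stood above all others. SEC14L1, a lipid-binding protein gene, had 84.3, 55.9, 79.7 and 55.6 TMM CPM, with tendons 1 and 3 above tendons 2 and 4. SEC24D had 219, 195, 139.6 and 154, highest in tendon 1 and lowest in tendon 3, a 1.57-fold range. TMED4 had 23.1, 36.3, 24.5 and 27.0, with tendon 2 above the others (1.57-fold). SEC22B had 51.6, 46.2, 34.3 and 37.8 (1.50-fold), again highest in tendon 1 and lowest in tendon 3. FKBP4 (1.47-fold, highest in tendon 2), SEC24B (1.48-fold, highest in tendon 1), SEC63 (1.45-fold, highest in tendon 1), SEC61A1 (1.44-fold, highest in tendon 2) and TRAPPC3 (1.42-fold, highest in tendon 2) completed the 10 members with the largest SD. At the other end, TRAPPC11, COPA and COPG2 had ranges of 1.06-, 1.07- and 1.12-fold.

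Tendon 2 was highest for 32 of 60 members (53.3%, against 34.0% of all genes), and tendon 1 for 21 (35%, against 33.7%). Tendon 3 was highest for 3 members (SEC22C, TRAPPC11 and SSRP1) and tendon 4 for 4 (COPG2, SEC24C, SEC61A2 and TMED5), against 15.2% and 17.1% of all genes. Tendon 3 was lowest for 26 (43.3%, against 17.3%) and tendon 4 for 22 (36.7%, against 32.7%). Tendons 1 and 2 were lowest for 9 and 3 members (the latter SEC23IP, SEC31B and COPG2), against 30.1% and 19.9%. These counts depend on the scale: in TPM, 35 of the 60 (58.3%) were highest in tendon 1 and 15 (25%) in tendon 2, against 44.2% and 13.1% of all genes. Relative to TMM, TPM moved the median of all genes by 0.06 in tendon 1 and -0.14 in tendon 2 on the log2 scale, and library totals moved it by -0.11 in tendon 2.

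The role groups did not share the same highest tendon. Most COPII genes were highest in tendon 1, and most genes of folding, TRAP and cargo reception in tendon 2, while COPI genes were divided, with 3 highest in each. In TMM CPM, 8 of 12 COPII genes were highest in tendon 1, as were 4 of 7 TRAPP genes, against 33.7% of all genes. Tendon 2 was highest for all 4 TRAP genes, all 4 ER FKBP genes, all 3 PDIA genes and 6 of 7 TMED genes. Of all genes, 34.0% were highest in tendon 2. The mean deviation of COPII genes from their own means was 0.15, 0.02, -0.09 and -0.08 on the log2 scale in tendons 1 to 4. For PDIA genes it was near 0 in tendon 1 and 0.23, -0.16 and -0.07 in tendons 2 to 4, and for ER FKBP genes 0.00, 0.21, -0.16 and -0.06. COPII stayed highest in tendon 1, and PDIA, ER FKBP, TRAP and TMED genes in tendon 2, with TMM, size factors, library totals and TPM alike. PDIA and ER FKBP genes were also lowest in tendon 3 with all 4 scalings. The ratio of summed COPII to summed TRAP levels, in which the scaling of a tendon cancels, was 0.669, 0.521, 0.557 and 0.558 in TPM and 2.74, 2.11, 2.28 and 2.27 in CPM. Tendon 1 was highest and tendon 2 lowest on either scale. This ratio was chosen after its values were seen.

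**Figure D3:**
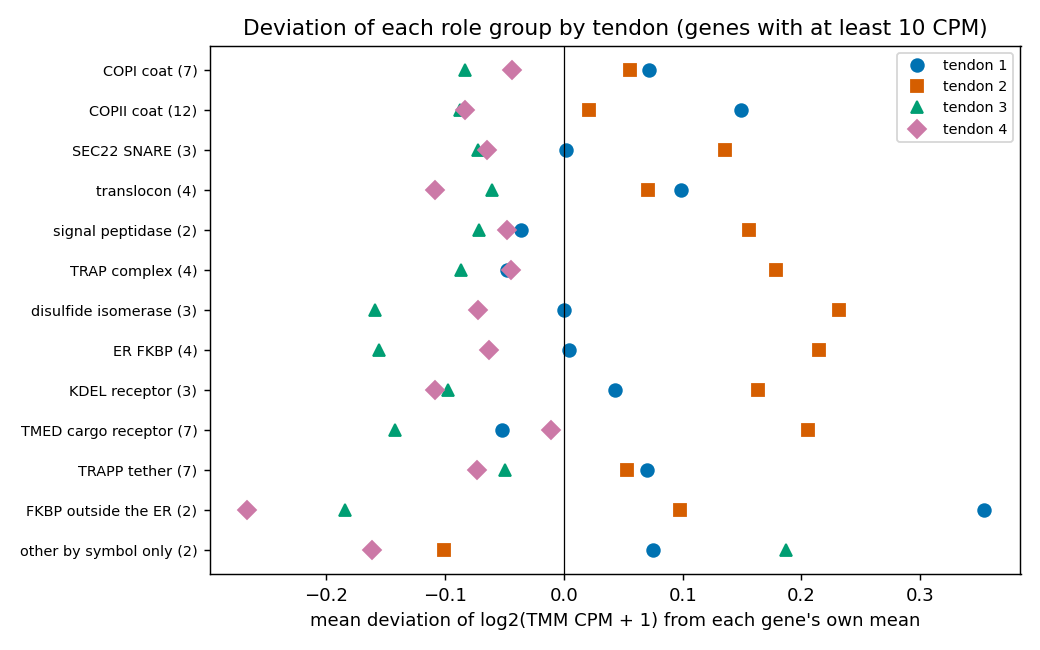
Mean deviation of log2(TMM CPM + 1) from each gene's own mean (horizontal axis) for the role groups, with the number of genes of at least 10 CPM in parentheses, in tendons 1 to 4 (points). COPII lies highest in tendon 1 at 0.15, and PDIA genes in tendon 2 at 0.23.

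Transcript length moved with this difference between tendons 1 and 2. Members highest in tendon 1 had a median length of 3615 bases, and members highest in tendon 2 of 1024.5 bases. Over all genes the medians were 3156 and 1653 bases. Of the 28 members shorter than 2000 bases, 7 (25%) were higher in tendon 1 than in tendon 2, against 32.9% of such genes in the whole table. Of the 32 longer members, 17 (53.1%) were higher in tendon 1, against 57.7% of all longer genes. SEC61A1 and PDIA4 were among the longer members that were higher in tendon 2, at 261 against 196 and 417 against 372 TMM CPM in tendon 1. The part of length in the difference between role groups was not tested.

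**Figure D4:**
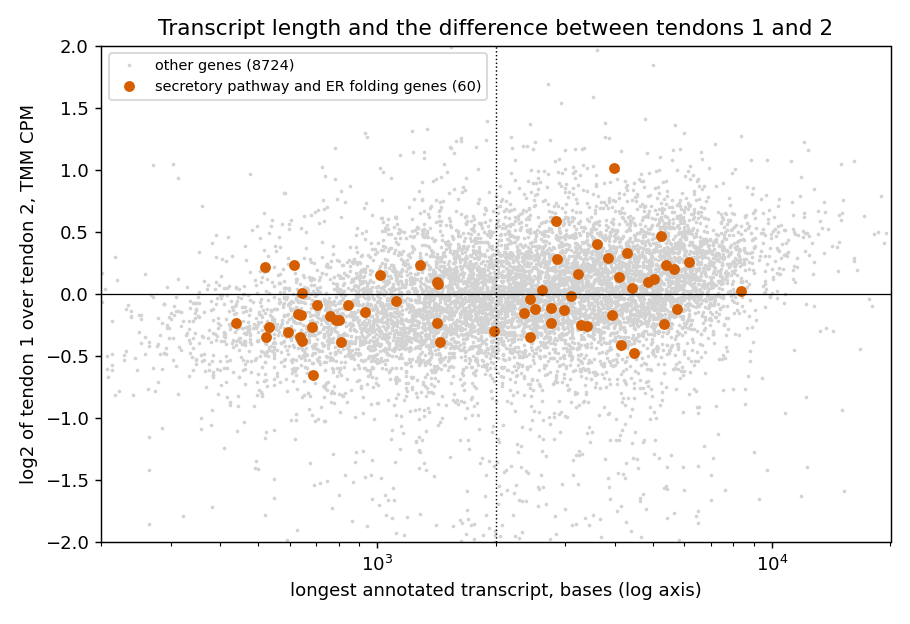
Log2 of tendon 1 over tendon 2 in TMM CPM (vertical axis) against the longest annotated transcript of each gene in bases (log axis), for 60 members and all other genes with at least 10 CPM; 116 other genes lie outside the axes. Short members lie mostly below the line of no difference, and the highest member is FKBP5.

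Cell type markers differed between the same tendons. Of 8 tenocyte markers, 7 had an entry, and all 7 had a mean of at least 1 TPM and none was at 0. Tenocyte markers took 6.56%, 4.94%, 3.23% and 2.89% of TPM in tendons 1 to 4. In TMM CPM, 4 of the 7 were highest in tendon 1 and 3 (THBS4, FMOD and TNMD) in tendon 2, against 33.7% and 34.0% of all genes. TNMD had 158, 169, 31.7 and 187 TPM, so not every marker followed the sum. The 8 of 10 skeletal muscle markers with an entry took 0.577%, 2.31%, 1.17% and 1.52%. Of the muscle genes, ACTA1, TNNI1, MB, DES and CKM had at least 290.2 TPM in every tendon. MYH1, MYH2 and TNNT3 stood at 99.4, 240.3 and 233 TPM in tendon 4 and at no more than 1.01 TPM in the others. Adipocyte markers (5 of 7) took 0.0247%, 0.0400%, 0.0542% and 0.103%, endothelial markers (5 of 5) 0.0150%, 0.0192%, 0.0262% and 0.0263% and macrophage markers (8 of 8) 0.00910%, 0.00743%, 0.0178% and 0.0234%. B cell and plasma cell markers (4 of 5), from cells with an enlarged secretory pathway, took 0.00105%, 0.000948%, 0.000882% and 0.00171%. The part of these cell types in the spread of the members was not tested.

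Type I collagen, the main cargo of the pathway in tendon, had a wider range between tendons than any secretory member of at least 10 CPM. COL1A1 had 15218, 8838, 3672 and 5354 TPM in tendons 1 to 4, and COL1A2 had 15234, 9494, 3871 and 5944 TPM. Summed, the chains had 30452, 18331, 7543 and 11299 TPM, a 4.04-fold range. The 59 secretory pathway genes summed to 6372, 6051, 5571 and 5891 TPM, a 1.14-fold range. A sum over many genes varies less than single genes, and the largest range of a single gene among the 56 of these with at least 10 CPM was 1.57-fold in TMM CPM, for TMED4. Type I collagen was thus 4.78, 3.03, 1.35 and 1.92 times the summed machinery. Tendon 1 was highest and tendon 3 lowest in both sums. In TMM CPM, where the mean deviation of all members was 0.06, 0.10, -0.09 and -0.07, tendon 2 lay above tendon 1 while tendon 3 remained lowest. With library totals, tendon 4 was highest at 0.02 and tendon 3 lowest at -0.04. All genes shifted with the scale as well. Their median deviation in tendons 1 to 4 was 0.016, 0.037, -0.006 and -0.038 with TMM. With library totals it was -0.028, -0.064, 0.045 and 0.056, so the members lay below it in tendons 3 and 4.

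**Figure D5:**
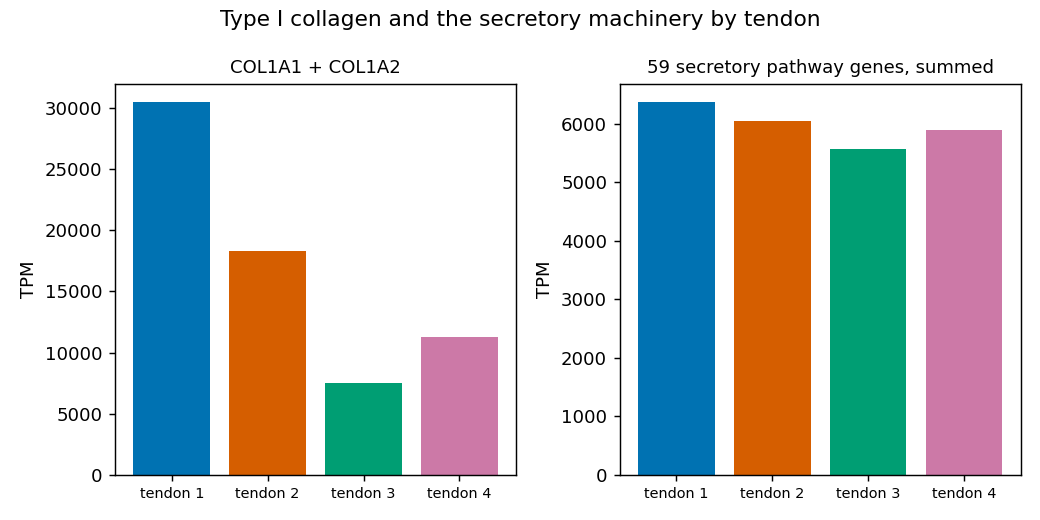
Summed TPM of COL1A1 and COL1A2 (left) and of the 59 secretory pathway genes (right) as bars from 0, 1 bar per tendon and no error bar since each bar is 1 animal; the vertical scales differ. Type I collagen ranges 4.04-fold and the machinery 1.14-fold.

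Other genes of the pathway were also most often highest in tendon 2 in TMM CPM. Of 64 listed partner symbols, alternative names included, 43 had an entry, and all 43 had a mean of at least 1 TPM. Together they took 0.670%, 0.674%, 0.570% and 0.588% of TPM in tendons 1 to 4. Their median SD of log2(TMM CPM + 1) was 0.19. In TMM CPM, tendon 2 was highest for 27 of 43, tendon 1 for 12, tendon 3 for 1 and tendon 4 for 3, against 34.0%, 33.7%, 15.2% and 17.1% of all genes. This order depends on the scale: in TPM the partner genes were most often highest in tendon 1, as were the members and all genes. The highest levels were those of HSP90B1, an ER chaperone, with 710.4, 712, 621 and 563 TPM, and PPIB, a prolyl isomerase of procollagen, with 560.3, 667, 512 and 599 TPM. HSPA5, the ER Hsp70 chaperone, had 564, 611, 395 and 359 TPM, with tendons 1 and 2 above tendons 3 and 4. ARF1 and ARF4, small GTPases of the Golgi, had means of 429 and 426 TPM, and the lectin chaperone gene CANX had 292 TPM.

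A range of at least 2-fold was seen for 2 of these 43 genes, against 10% of all genes. These were DDIT3 and MANF, which had the largest SD of the list together with HSPA5. DDIT3, a transcription factor gene induced by ER and other stress, had 118, 60.7, 50.3 and 49.9 TPM, with tendon 1 apart from the others (2.36-fold in TMM CPM). MANF, a stress-induced ER protein gene, had 226, 265, 144 and 151 TPM, with tendons 1 and 2 above tendons 3 and 4 (2.05-fold). For HSPA5 the range was 1.95-fold.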

How the data were processed

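Poly(A) RNA of 4 tendons was sequenced. The authors deposited estimated counts per transcript, 1 column per tendon, not scaled for depth or length, beside transcript lengths in bases. Kallisto 0.42.4, bcl2fastq, FastQC and the build OryCun2.0 are named in the submitters' processing notes without their roles, and filters and the use of strand are not given in the sources used here. Totals ranged from 19759696 to 30646052 estimated counts.

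Counts were summed per gene. TPM were computed from counts and annotated lengths. CPM were computed from unrounded counts and scaled by TMM in edgeR 4.0.16 (R 4.3.3), with DESeq2 1.42.0 size factors as an alternative. Counts rounded to whole numbers served for the scaling factors and the biological coefficients of variation. Biological coefficients of variation came from an intercept-only fit of genes that reached 1 CPM in 2 or more tendons. Ratios were tested by exact sign-flip permutation. The lowest count of a member with at least 10 CPM was 214 (TMED5; exact Poisson 95% interval 186 to 245, counting error only). Tendons that stand apart were sought with Dixon's ratio at its 95% critical value. The scripts were tested on simulated data. Values per tendon are given for the leading 3 members of each role group, both genes of each fixed pair, the 10 members with the largest SD, and members behind small counts. Members, lists and tests were chosen with earlier results of these data known. Levels of other members are given where they complete a family.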

Additional observations from a re-analysis of the deposited data

Results flagged for a closer look

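Dixon's ratio, the gap of the most distant tendon to its neighbour divided by the whole range, was computed for 101 values: the TPM of 67 members, 14 summed shares and 20 pair ratios. It passed its 95% critical value for 3 of them, where chance gives about 5.05. FKBP5, the glucocorticoid-induced cochaperone gene, was high in tendon 1 (ratio 0.898), with 26.0, 11.2, 9.65 and 11.3 TPM in tendons 1 to 4. SEC23A, of the COPII inner coat, was also high in tendon 1 (ratio 0.896), with 80.2, 57.5, 58.8 and 59.8 TPM. KDELR2, a KDEL receptor gene, was low in tendon 4 (ratio 0.957), with 186, 187, 186 and 169 TPM, a range of only 1.10-fold. These ratios depend on the scale. In TMM CPM, an alternative chosen after seeing the data, they were 0.821 for FKBP5, 0.697 for SEC23A and 0.482 for KDELR2, and none of the 3 passed. On that scale 4 of 67 members passed, namely SSR4, COPZ2, COPZ1 and TMED2, none of which passed in TPM.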

How the results depend on the processing

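Shares and pair ratios depended on the correction for length. In CPM the members took 0.585% in all, and the groups that moved beyond 1 SD took 0.118% for COPI, 0.114% for COPII, 0.0532% for the translocon, 0.00862% for signal peptidase, 0.0489% for TRAP, 0.0557% for PDIA genes, 0.0193% for KDEL receptors, 0.0382% for TMED genes, 0.0283% for TRAPP genes, 0.0205% for FKBP genes outside the ER and 0.0228% for the SEC14-like genes and SSRP1. With 200 bases taken off each length, they took 0.0718% for COPI, 0.0547% for COPII, 0.0274% for the translocon, 0.0263% for signal peptidase, 0.120% for TRAP, 0.0340% for PDIA genes, 0.0432% for ER FKBP genes, 0.104% for TMED genes, 0.0343% for TRAPP genes, 0.00821% for FKBP genes outside the ER and 0.0119% for the SEC14-like genes and SSRP1. Mean log2 ratios that turned in CPM were 0.29 for COPB1/COPB2, 0.25 for COPZ1/COPZ2, 0.30 for KDELR2/KDELR3, -0.99 for SEC62/SEC63, -0.21 for SSR4/SSR1, -1.02 for PDIA6/PDIA4 and 0.21 for FKBP10/FKBP9. With shorter lengths they were -0.0690 for SAR1A/SAR1B and -0.0870 for SEC11A/SEC11C. When each tendon was left out, KDELR2/KDELR3 lay between -0.106 and 0.0539 (turned without tendon 1 and without tendon 4, the latter at 0.020) and SEC11A/SEC11C between -0.0187 and 0.0538 (turned without tendon 1). The other mean log2 ratios kept their direction under each of these settings.

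The count of members with at least a 2-fold range was 1, and 5 at 1.5-fold, against 10% and 29.2% of all genes. With genes of at least 1 CPM or with no filter it was 3 (FKBP5, FKBPL and FKBP6), and the share over all genes is not given there. When each tendon was left out it was 0 to 1, against 5.32% to 8.83% of all genes. Members highest in tendons 1, 2 and 4 numbered 35, 15 and 8 in TPM (44.2%, 13.1% and 27.5% of all genes), and library totals gave 5 and 12 for tendons 3 and 4 (8.33% and 20% of members, against 25.02% and 34.8% of all genes). DESeq2 size factors moved no such count by over 1.5 times. No paired analysis was possible because all samples form 1 group. At these depths, FKBP6 and TRAPPC3L rest on 20 to 45 counts per tendon, which limits what can be said of their spread.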
